A study of Mus musculus with 6 samples.

Results

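The integrated stress response genes described here are 10 genes: the transcription factor gene Atf4 and 9 of its known targets, Ddit3, Trib3, Chac1, Asns, Sesn2, Ppp1r15a, Atf3, Atf5 and Slc7a11. They were taken by gene symbol from the 23282 rows of the deposited count tables, and each symbol had its row in every library. The mRNA came from hippocampi of 16-week C57BL/6 mice of the genotypes PHF2 t/g and wild type (WT), with 3 libraries of each. PHF2 removes methyl groups from histone H3. The labels do not spell out t/g, and nothing in them names the allele or construct, a promoter, the founder lines or the cells in which Phf2 is altered. The labels do not say whether each library came from its own animal, so every p-value reflects variation among libraries, part of which may be technical.

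In the integrated stress response, the kinases Gcn2, Perk, Pkr and Hri sense a shortage of amino acids, misfolded protein in the endoplasmic reticulum, double-stranded RNA or haem deficiency, and phosphorylate the initiation factor eIF2. General translation then falls, while a few mRNAs with upstream open reading frames, Atf4 first among them, are translated more. ATF4 protein binds DNA with partners of the C/EBP family and switches on genes for amino acid uptake and synthesis, for feedback and, under lasting stress, for cell death. In the hippocampus phosphorylation of eIF2 and ATF4 are known as brakes on long-lasting plasticity and memory. The libraries read mRNA, so they hold no measure of eIF2 phosphorylation or of ATF4 translation.

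The site at which ATF4 and C/EBP proteins bind together is often written TGATGNAA, and it was searched on both strands from 250 bases before to 50 bases after the start of each gene, in RefSeq promoters of GRCm38.p6, where all 10 genes were found. Asns, Chac1, Slc7a11, Atf3 and Trib3 held it, 5 of 10 genes and 5 of their 11 windows, against 3.97% of all 32851 windows. The genes were chosen as Atf4 and its known targets, so this larger share is no separate evidence of ATF4 binding. The cyclic AMP response element TGACGTCA was in the window of Ppp1r15a, and in 1.79% of all windows. The searched motifs overlap in no gene. The match in Trib3 lies 15 to 22 bases after the start and is not printed. A match is a description of the letters, not a bound site, and the window says nothing of elements farther away. The stretches below show the 4 genes with the ATF4 motif before the start, beside the 3 genes whose mRNA was lower in PHF2 t/g (Ppp1r15a, Ddit3 and Atf4). Each is read 5′ to 3′ in the direction of the gene, and capitals mark the motifs named above. The Asns stretch is chr6:7693210-7693279 (minus strand), that of Chac1 chr2:119351018-119351087 (plus), that of Slc7a11 chr3:50443632-50443701 (minus) and that of Atf3 chr1:191183405-191183474 (minus). The Slc7a11 window is set on the start at base 50443613, which lies 55474 bases inside the RefSeq span of the gene; the other printed windows are set on the start of the span. Those of Ppp1r15a, chr7:45526269-45526338 (minus), Ddit3, chr10:127290723-127290792 (plus), and Atf4, chr15:80255114-80255183 (plus), end at the base before the start.
Asns: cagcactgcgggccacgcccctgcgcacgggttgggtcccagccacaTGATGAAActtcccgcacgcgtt
Chac1: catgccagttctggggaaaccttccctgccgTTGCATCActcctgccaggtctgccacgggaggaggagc
Slc7a11: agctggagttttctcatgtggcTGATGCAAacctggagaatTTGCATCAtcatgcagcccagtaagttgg
Atf3: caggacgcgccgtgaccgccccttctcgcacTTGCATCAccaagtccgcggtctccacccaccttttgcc
Ppp1r15a: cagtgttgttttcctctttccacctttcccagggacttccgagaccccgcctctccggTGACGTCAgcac
Ddit3: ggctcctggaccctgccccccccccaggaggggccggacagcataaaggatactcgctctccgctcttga
Atf4: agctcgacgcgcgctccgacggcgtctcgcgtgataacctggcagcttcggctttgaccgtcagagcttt

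The libraries held 5512171 to 8844718 counts. Levels are given in CPM, which are counts relative to library totals scaled by TMM; a tag is read near the 3′ end of each transcript, so CPM do not scale with transcript length. The tissue markers of hippocampal pyramidal and granule neurons summed to 685 to 888 CPM in PHF2 t/g libraries and to 772 to 899 CPM in those of WT, with all 9 markers present; Wfs1 was higher in PHF2 t/g and the other 8 did not pass. WT replicate 2 stood apart from the other WT libraries, with a chi-square of 8.98 and 9.22 per gene against them, where the other pairs within a group had 2.82 to 4.04. Phf2 mRNA averaged 38.7 ± 3.96 CPM in PHF2 t/g libraries and 37.7 ± 1.92 CPM in WT libraries (SD, n = 3; edgeR adjusted p = 0.929), which is no check of the labels, since they do not say how t/g alters the gene and 3′ tags would miss a construct without its own 3′ end. Of all 12831 genes tested, 2.27% passed a Benjamini-Hochberg adjusted p of 0.05 in the quasi-likelihood test of edgeR, 1.49% lower and 0.779% higher in PHF2 t/g. Of these calls 34.4% were higher, and 74.7% were when libraries were scaled by their totals alone.

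Atf4, Ddit3 and Ppp1r15a fell in PHF2 t/g hippocampus, Ppp1r15a only just (edgeR adjusted p = 0.0496). Asns, Slc7a11, Atf5, Chac1 and Trib3 did not pass the test. Of the 10 genes 8 had enough counts to be tested; 3 of the 8 fell, 0 rose and 5 did not pass. All 8 had a log2 fold change below 0 with TMM, against 46.1% of all genes tested, and Asns lay above 0 when libraries were scaled by their totals alone. Their median log2 fold change was −0.34 and that of all genes tested 0.02. In the same 3 genes the PHF2 t/g libraries all lay below the WT libraries, as in 10.4% of all genes tested. In whole tissue, fewer cells of a type and less mRNA per cell cannot be told apart.

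**Figure D1:**
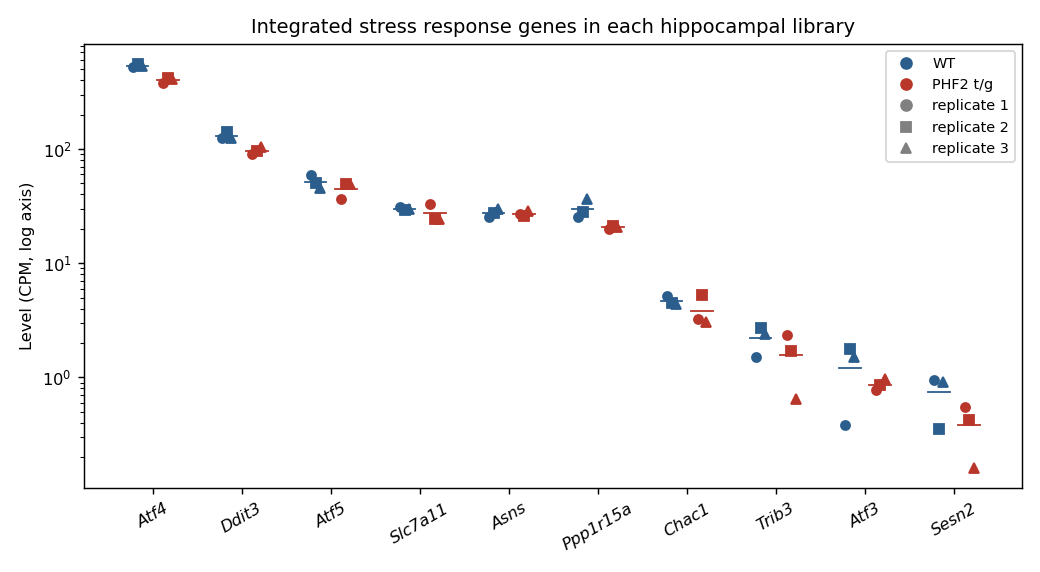
Level of each gene in CPM (vertical log axis) in the 3 WT (blue) and 3 PHF2 t/g (red) libraries; symbols mark replicate numbers and bars the group means. The groups are separate for Atf4, Ddit3 and Ppp1r15a and overlap for the other 7 genes.

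Atf4 (chromosome 15, 80255184 to 80257545, plus strand) encodes the bZIP transcription factor at the centre of the response. It was the most abundant of the 10 mRNAs, at a level above 97.9% of all genes tested. Its level was 381, 415 and 413 CPM in PHF2 t/g replicates 1, 2 and 3, against 525, 553 and 529 CPM in WT replicates 1, 2 and 3. The highest PHF2 t/g library lay well below the lowest WT library, and the difference between groups exceeded the spread within either. The mean of the PHF2 t/g libraries was 403 ± 19.2 CPM and that of the WT libraries 536 ± 15.2 CPM (SD, n = 3). The log2 fold change was −0.41 (SE 0.0749; 95% interval −0.57 to −0.25; edgeR adjusted p = 0.00543), and Atf4 stood at rank 69 of all genes tested by p. Without PHF2 t/g replicate 1 the adjusted p was 0.0897, with a log2 fold change of −0.37.

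Ddit3 (chromosome 10, 127290793 to 127296291, plus strand) encodes CHOP, a C/EBP family factor induced by ATF4 and known for its role in cell death under lasting stress. It was read at 90.0, 96.1 and 103 CPM in the 3 PHF2 t/g libraries, and at 126, 141 and 124 CPM in the 3 WT libraries. The groups were again separate, and WT replicate 2 was the highest library, as it was for Atf4. The mean was 96.5 ± 6.72 CPM in PHF2 t/g against 130 ± 9.26 CPM in WT (SD, n = 3), with a log2 fold change of −0.44 (SE 0.0886; edgeR adjusted p = 0.0126). It no longer passed when PHF2 t/g replicate 1 (adjusted p = 0.163) or replicate 2 (0.0928) was omitted, when PHF2 t/g replicate 1 and WT replicate 2 were omitted together (0.101), and with library size alone as the scaling (0.0534). The 3′ end of Ddit3 shares 68 bases with that of Mars, the methionyl-tRNA synthetase gene on the other strand. The labels do not say whether strand was used in counting, so tags from these shared bases are uncertain. Mars had a log2 fold change of −0.28 in the same libraries and did not pass (edgeR adjusted p = 0.0859).

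Ppp1r15a (chromosome 7, 45522917 to 45526268, minus strand) encodes GADD34, the phosphatase subunit that brings protein phosphatase 1 to eIF2 and so closes the feedback loop of the response. The PHF2 t/g libraries held 20.1, 21.0 and 20.6 CPM, and the WT libraries 25.1, 28.1 and 36.6 CPM. PHF2 t/g libraries were close to each other, while WT replicate 3 was far above the other WT libraries. The mean was 20.6 ± 0.461 CPM against 29.9 ± 5.97 CPM (SD, n = 3), and the log2 fold change −0.55 (SE 0.142; edgeR adjusted p = 0.0496), and Ppp1r15a ranked 291 by p among the 291 genes that passed. The call ended in 10 of 16 other settings, among them the omission of WT replicate 3 (log2 fold change −0.39; adjusted p = 0.19), of any 1 PHF2 t/g library (0.146 to 0.294) and of PHF2 t/g replicate 1 with WT replicate 2 (0.127), library size alone (0.117), limma-voom (0.105), the fit without the robust option (0.0936) and the fit without the rows Rn45s, Lrrc17 and Akap5 (0.0514). Its last 717 bases overlap the 3′ part of Tulp2 on the other strand, a row with 8 to 20 counts in each library, and the same doubt on strand holds. Tulp2 was lower in PHF2 t/g without overlap but did not pass (log2 fold change −0.85; edgeR adjusted p = 0.307).

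**Figure D2:**
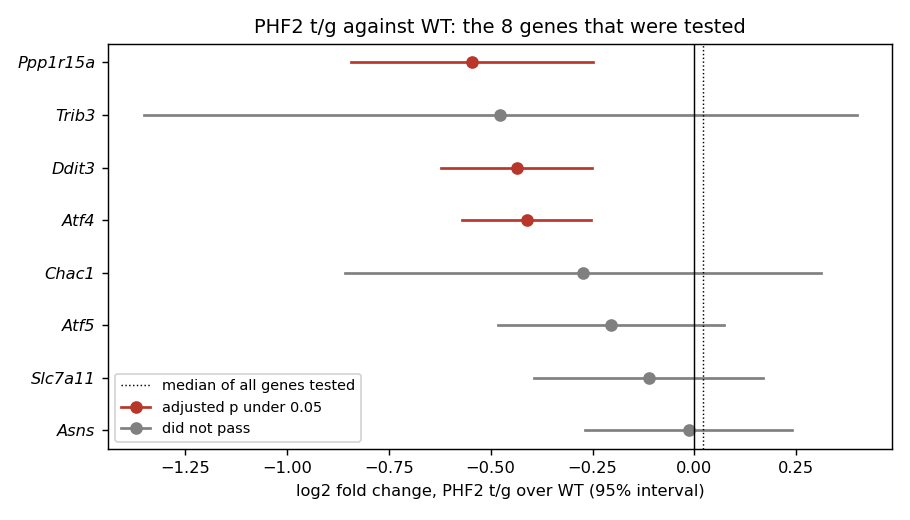
Log2 fold change of PHF2 t/g over WT with its 95% interval (horizontal axis) for the 8 genes tested; red marks an adjusted p under 0.05, and the dotted line is the median of all genes tested, 0.02. The intervals of Ppp1r15a, Ddit3 and Atf4 lie below 0, and that of Asns is centred near 0.

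Atf5 (chromosome 7, 44812256 to 44816658, minus strand), a bZIP factor close to ATF4 that also acts in the mitochondrial unfolded protein response, did not pass. It was at 36.2, 49.1 and 48.9 CPM in PHF2 t/g, against 59.0, 49.9 and 45.7 CPM in WT. PHF2 t/g replicate 1 was the lowest and WT replicate 1 the highest, and the other 4 libraries lay close together. The log2 fold change was −0.21, with a 95% interval of −0.48 to 0.07 (edgeR adjusted p = 0.502). Nup62 on the other strand shares 571 bases with the 5′ end of Atf5, away from the 3′ end where tags are read.

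Asns (chromosome 6, 7675165 to 7693209, minus strand), asparagine synthetase and a textbook ATF4 target, was at 27.1, 25.7 and 28.6 CPM in PHF2 t/g, against 25.1, 27.3 and 29.7 CPM in WT. The groups overlapped throughout. Its log2 fold change was −0.01 with a 95% interval of −0.27 to 0.24 (edgeR adjusted p = 0.97). The lower bound lies above the log2 fold changes of Atf4 and Ddit3. The interval still overlaps those of Atf4 (−0.57 to −0.25) and Ddit3 (−0.62 to −0.25). Slc7a11 (chromosome 3, 50364936 to 50499087, minus strand) encodes xCT, the cystine-glutamate exchanger that supplies cysteine for glutathione. It was at 33.3, 24.6 and 24.5 CPM in PHF2 t/g, against 30.8, 29.0 and 29.8 CPM in WT. PHF2 t/g replicate 1 was the highest of the 6 libraries and the other PHF2 t/g libraries the lowest. The log2 fold change was −0.11, with an interval of −0.39 to 0.17 (edgeR adjusted p = 0.752).

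Chac1 and Trib3 were rare in this tissue. Chac1 (chromosome 2, 119351242 to 119354326, plus strand), an enzyme that degrades glutathione, had 29, 37 and 19 counts in PHF2 t/g and 27, 38 and 29 in WT, or 3.84 ± 1.22 and 4.66 ± 0.413 CPM (SD, n = 3). Trib3 (chromosome 2, 152337425 to 152344060, minus strand), a pseudokinase that restrains ATF4 and CHOP, had 21, 12 and 4 counts in PHF2 t/g and 8, 23 and 16 in WT, or 1.56 ± 0.853 and 2.22 ± 0.616 CPM. The groups overlapped for both genes. Their 95% intervals of the log2 fold change, −0.86 to 0.31 for Chac1 and −1.35 to 0.40 for Trib3, contain 0 as well as the values of Atf4 and Ddit3.

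Sesn2 and Atf3 stayed below the low-count filter and were not tested. Sesn2 (chromosome 4, 132492804 to 132510456, minus strand), a stress-induced inhibitor of mTORC1 signalling, had 5, 3 and 1 counts in PHF2 t/g and 5, 3 and 6 in WT. Atf3 (chromosome 1, 191170296 to 191183333, minus strand), a bZIP factor induced by stress and by neuronal injury, had 7, 6 and 6 counts in PHF2 t/g and 2, 15 and 10 in WT. The groups overlapped for both. The ratio of PHF2 t/g to WT was 0.588 for Sesn2 with a 95% counting interval of 0.225 to 1.46, and 0.644 for Atf3 with an interval of 0.338 to 1.2, by the exact (Clopper-Pearson) method. These intervals cover counting error only.

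Exact two-sided permutation tests of log2(CPM + 1) over the 6 libraries gave p = 0.1 for Atf4, Ddit3 and Ppp1r15a, the smallest p that 3 against 3 libraries allow. The other 7 genes gave 0.3 for Sesn2, 0.4 for Trib3, Chac1, Atf5 and Slc7a11, 0.6 for Atf3 and 0.9 for Asns by the same exact test.

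The order of the levels was Atf4, Ddit3, Atf5, then Slc7a11, Asns and Ppp1r15a, whose libraries overlapped, then Chac1, Trib3, Atf3 and Sesn2. Atf4 and Ddit3 made up 79.2% to 82.9% of the counts of the 10 genes in each library. The summed level of the 10 lay between 594 and 644 CPM in the PHF2 t/g libraries and between 799 and 838 CPM in the WT libraries, a difference carried mostly by Atf4.

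Counts set against Atf4 in the same library need no scaling. Ddit3 kept a near constant ratio to it, with 237, 232 and 251 counts per 1000 Atf4 counts in PHF2 t/g and 240, 255 and 235 in WT. The groups overlapped, with means of 240 ± 9.74 and 243 ± 10.5 (SD, n = 3). Asns was at 71.2, 62.0 and 69.4 counts per 1000 Atf4 counts in PHF2 t/g and 47.9, 49.3 and 56.1 in WT. All 3 PHF2 t/g libraries were above all 3 WT libraries, by 1.32-fold. Slc7a11 was at 87.5, 59.2 and 59.2 per 1000 Atf4 counts in PHF2 t/g and 58.7, 52.5 and 56.4 in WT, where the groups were separate by a narrow margin and replicate 1 of PHF2 t/g carried most of the difference. Ppp1r15a, at 51.1 ± 1.51 against 56.0 ± 11.6 per 1000, Atf5, Chac1 and Trib3 overlapped between groups. Of these 7 ratios, Asns and Slc7a11 had the smallest exact two-sided permutation p that is possible (0.1; 0.35 after Benjamini-Hochberg adjustment over the 7). Of the 12830 other genes tested, 65.7% had ratios to Atf4 that were higher in PHF2 t/g without overlap, and the median ratio was 1.35-fold higher, so the separation of Asns and Slc7a11 is that of most genes. Such a ratio shows unequal change and not which of its members changed.

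**Figure D3:**
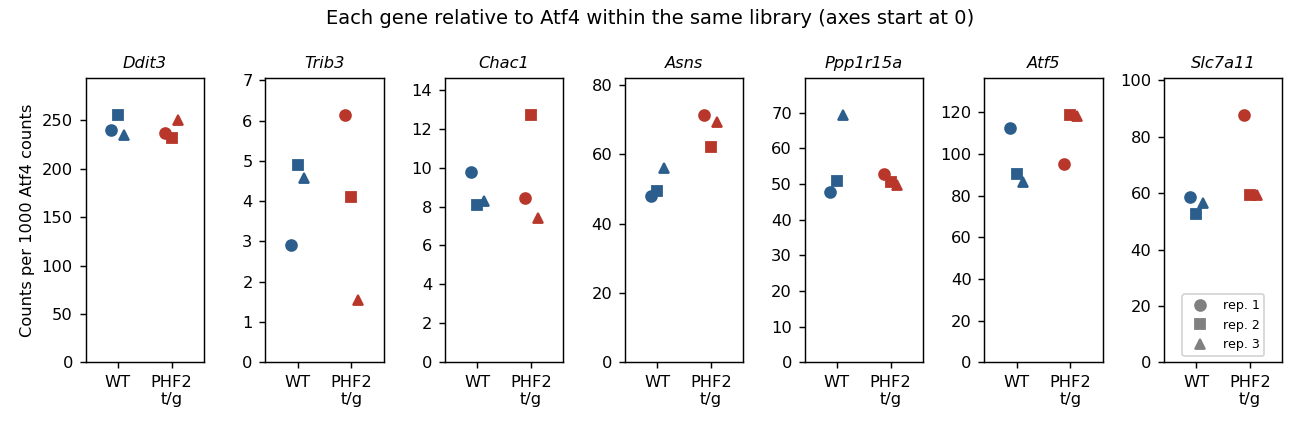
Counts of each tested gene per 1000 counts of Atf4 in the same library (vertical axes start at 0 and differ between panels), for WT (blue) and PHF2 t/g (red) with symbols for replicate numbers. Ddit3 lies between 232 and 255 in all 6 libraries, and Asns is at 62.0 to 71.2 in PHF2 t/g against 47.9 to 56.1 in WT.

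Across the 6 libraries the mRNAs whose log2 CPM followed that of Atf4 closely, among 9238 genes whose mean log2 CPM reached 3, included Ubtf (Pearson r = 0.999) and Foxp1 (0.994). Ubtf encodes an activator of ribosomal RNA transcription and Foxp1 a forkhead factor of neurons. Ubtf went from 245 CPM in WT to 193 CPM in PHF2 t/g and Foxp1 from 663 to 521 CPM. The libraries share the split into groups, and these values, picked as the highest of many, are a description only.

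Few of all genes tested passed (2.27%), so 0 calls in a short list of genes upstream of Atf4 lies near that share. Of 4 eIF2 kinase genes tested, 0 passed. Eif2ak1, the gene of Hri, had the smallest p, with 25.2 ± 1.45 CPM in PHF2 t/g against 29.7 ± 1.68 CPM in WT (SD, n = 3; edgeR adjusted p = 0.368). Of 12 genes for the subunits of eIF2, of its exchange factor eIF2B and of eIF2 phosphatases, 0 passed, and the phosphatase catalytic subunit gene Ppp1cc had the smallest p (log2 fold change 0.28; edgeR adjusted p = 0.256). Of 9 tested bZIP partners and regulators of ATF4, 1 rose and 8 did not pass. Cebpd, a C/EBP factor of inflammation and glia, rose from 7.76 ± 1.36 to 14.0 ± 0.152 CPM (log2 fold change 0.85; edgeR adjusted p = 0.015). It no longer passed when WT replicate 3 or any 1 PHF2 t/g library was omitted. Cebpb and Cebpg, the more usual partners of ATF4, had log2 fold changes of 0.06 and 0.03 (edgeR adjusted p = 0.952 and 0.949). Jdp2 of this list was lower in PHF2 t/g without overlap (log2 fold change −0.42, edgeR adjusted p = 0.0869). Its fall passed without the low-count filter and without WT replicate 1.

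Further ATF4 targets were read in short lists. With 2.27% of all genes tested passing, a list without a call lies near that share and does not show that its genes were unchanged. Of 11 tested genes of serine, glycine, one-carbon and proline synthesis 0 passed, 9 lay above 0 and the median log2 fold change was 0.15. Cbs, which makes cystathionine, had the smallest p, at 7.48 ± 0.344 against 4.42 ± 0.925 CPM (edgeR adjusted p = 0.0927). Gpt2 of this list passed, higher in PHF2 t/g, without the low-count filter and without WT replicate 1. Of 8 tested amino acid transporters 0 passed. The leucine transporter gene Slc7a5 had the smallest p among them, with 78.2 ± 0.969 CPM in PHF2 t/g against 100.1 ± 11.3 CPM in WT (edgeR adjusted p = 0.0623), and it passed by DESeq2, without the low-count filter and without WT replicate 2, also when PHF2 t/g replicate 1 was omitted with the latter. Of 13 cytosolic aminoacyl-tRNA synthetase genes 0 passed, with a median of 0.00463; Mars, named above, had the smallest p. Of 9 other tested ATF4 targets, 1 rose and 8 did not pass, with a median of −0.01. Vegfa, the endothelial growth factor, which hypoxia also induces, rose from 50.3 ± 3.39 to 79.5 ± 2.55 CPM (log2 fold change 0.66; edgeR adjusted p = 9.08e-04) and passed in each of the other settings run.

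The other branches of the unfolded protein response were also without calls, which in short lists is near the 2.27% of all genes tested. Of 14 endoplasmic reticulum chaperone and Atf6 genes 0 passed (median −0.03), and the disulfide isomerase gene Pdia3 had the smallest p, at 109 ± 4.14 CPM against 135 ± 7.13 CPM (edgeR adjusted p = 0.0561). It passed by DESeq2 and without the low-count filter. Of 9 tested Ire1 and Xbp1 genes 0 passed (median 0.19), with the smallest p for the chaperone gene Dnajc3 (log2 fold change 0.21; edgeR adjusted p = 0.375). Of 9 mitochondrial chaperone and protease genes 0 passed (median 0.07), and the protease gene Afg3l2 had the smallest p, at 33.8 ± 2.13 CPM against 25.3 ± 0.869 CPM (edgeR adjusted p = 0.0647). It passed with library size alone and without the low-count filter. At an unadjusted p under 0.05, which 14.7% of all genes tested passed, these 3 lists held 3, 0 and 2 genes. The lists without a call in the 2 paragraphs before held 0 of 4 eIF2 kinases, 3 of 12 eIF2, eIF2B and phosphatase genes, 2 of 11 synthesis genes, 2 of 8 transporters and 4 of 13 tRNA synthetases at that p. In the lists without a call, limma-voom called 0 genes and DESeq2 called Slc7a5 and Pdia3.

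**Figure D4:**
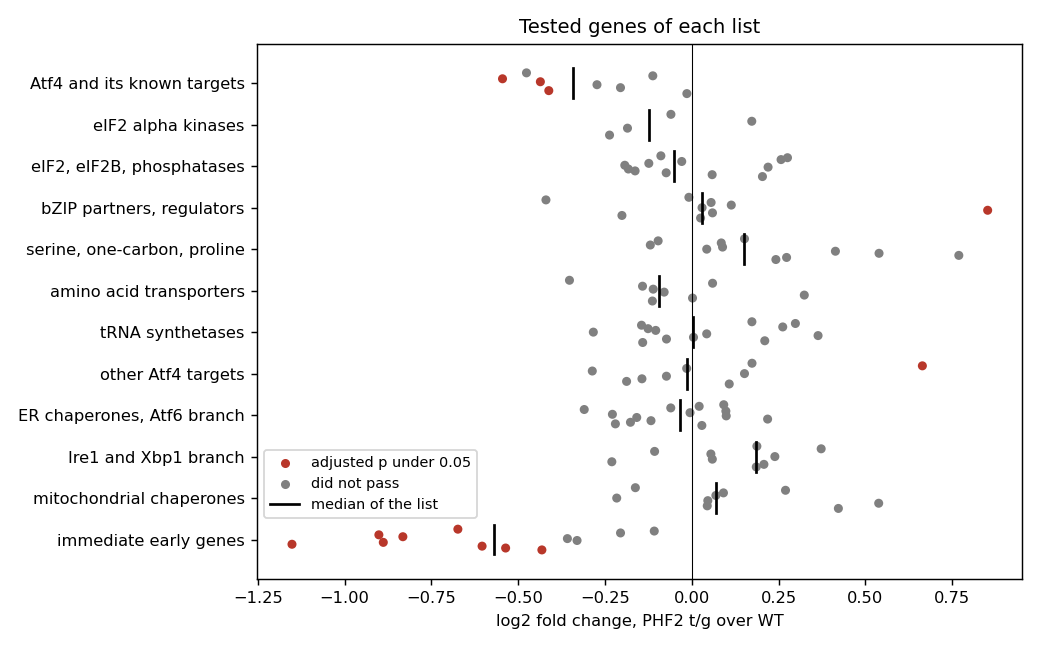
Log2 fold change of PHF2 t/g over WT for each tested gene of the 12 lists (horizontal axis, 1 row per list); red marks an adjusted p under 0.05 and black bars the medians. Atf4 and its known targets have a median of −0.34; apart from the immediate early genes, the other lists have medians from −0.12 to 0.19.

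Several other gene groups moved in the same libraries as Atf4, Ddit3 and Ppp1r15a. Of 12 immediate early genes, a class that neuronal firing induces rapidly, 8 fell while 4 did not pass. Of all genes tested 1.49% fell. Those of the list that fell were Junb, Egr1, Egr2, Egr4, Arc, Nr4a2, Ier2 and Dusp1, and the median log2 fold change of the 12 was −0.57. Only Junb, Egr2, Egr4 and Nr4a2 of the list passed when PHF2 t/g replicate 1 or replicate 2 was omitted. Arc and Dusp1 did not pass by limma-voom, and Arc, Dusp1 and Egr1 did not pass with library size alone. The list of 12 was drawn up with earlier results on these libraries known. Markers of neighbouring tissue differed too. Of all genes tested 0.779% rose. The 6 hypothalamus markers summed to at most 51.4 CPM and at least 50.04 CPM in PHF2 t/g, against 3.05 to 3.48 CPM in WT, with 3 of 3 tested members higher (Avp, Oxt and Trh), while Hcrt, Pmch and Agrp had 2 to 14 counts per group and were not tested. The 6 markers of meninges and fibroblasts summed to 152 to 170 CPM against 74.7 to 102 CPM (1 of 6 higher, Mgp). Mgp, at 112 ± 7.26 CPM against 43.6 ± 8.05 CPM, made up most of that sum in PHF2 t/g. Col1a1, Col1a2, Igf2 and Slc6a13 lay above WT and Dcn below it (log2 fold change −0.34), and none of these passed. The 6 striatum markers summed to 636 to 736 CPM against 491 to 563 CPM (2 of 5 tested higher, Penk and Rgs9). Of the striatum markers Adora2a went the other way, with a log2 fold change of −0.33 that did not pass, and Drd2 had 1 count in PHF2 t/g and 3 in WT. The 5 endothelial and mural markers summed to 106 to 109 CPM against 77.7 to 92.7 CPM, with 2 higher (Flt1 and Vwf). Cldn5 of that list was below WT without overlap, at 11.7 against 17.9 CPM, and did not pass (edgeR adjusted p = 0.0791). General neuron markers, at 4509 to 4691 CPM against 4608 to 4991 CPM, and the astrocyte and microglia markers had 0 calls, and 2 of 5 oligodendrocyte markers were lower. The 6 choroid plexus markers summed to 158 to 558 CPM against 140 to 156 CPM, and the 5 blood markers to 109 to 175 CPM against 41.5 to 146 CPM, with 0 calls in either. All listed markers of these cell types had counts in at least 1 library. The ribosomal RNA row Rn45s fell as well, to 70797 ± 2947 CPM from 96139 ± 10533 CPM in WT (SD, n = 3; log2 fold change −0.44; edgeR adjusted p = 0.0169). The part of these groups and of Rn45s in the fall of Atf4, Ddit3 and Ppp1r15a was not tested. The choroid plexus transcript Ttr, at 2634 counts in PHF2 t/g replicate 1 and 8 to 38 in the other libraries, set that library apart. Without it 0 of the 10 genes and 49 of all genes passed. Without PHF2 t/g replicate 2 or 3 the numbers were 1 or 2 of the 10, and 106 or 116 of all genes. Whether Ttr and the lost calls are linked was not tested.

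The fall of Atf4 passed the threshold in 15 of 16 other settings, that of Ddit3 in 12 and that of Ppp1r15a in 6. The log2 fold change ranged from −0.44 to −0.31 for Atf4, from −0.49 to −0.33 for Ddit3 and from −0.66 to −0.39 for Ppp1r15a over these settings. With a single library omitted, Atf5 ranged from −0.29 to −0.07, Slc7a11 from −0.28 to −0.04, Chac1 from −0.56 to −0.15 and Trib3 from −0.91 to −0.16, and none of these passed. Atf5 was nearest to 0 without PHF2 t/g replicate 1, and Slc7a11 and Trib3 were farthest from 0 without it. Library size alone moved the median of all genes from 0.02 to 0.12. Relative to that median Atf4 was at −0.43 with both scalings, Ddit3 at −0.46 and −0.46, and Ppp1r15a at −0.57 and −0.57. A change of scaling shifts all genes by nearly the same amount, so these equal values were fixed in advance and are no separate check.

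**Figure D5:**
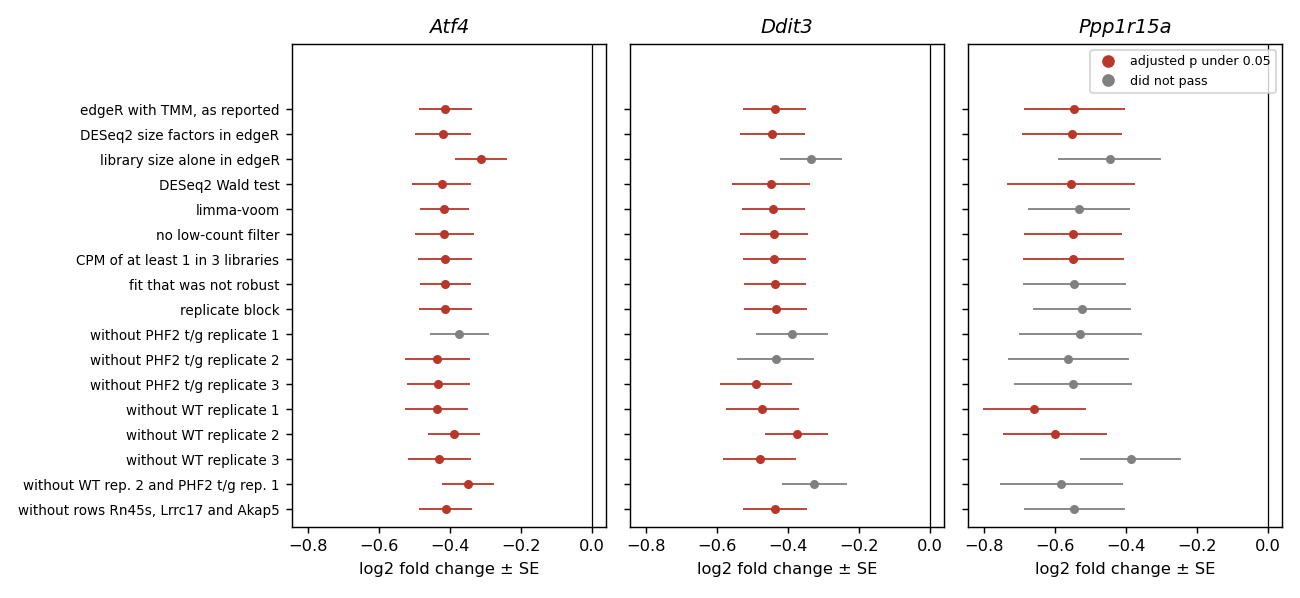
Log2 fold change ± SE of Atf4, Ddit3 and Ppp1r15a (horizontal axes) under each setting (rows); red marks an adjusted p under 0.05. All values lie below 0, and Ppp1r15a is past the threshold in 6 of the 16 other settings.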

How the data were processed

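Hippocampal RNA was extracted with Trizol and made into 3′ end libraries with the QuantSeq kit, per the labels' protocols. The authors deposited raw counts per gene symbol, 1 table per library, without normalization. Bowtie2, edgeR and build mm10 are named in the submitters' processing notes; their versions, the counting program, its annotation and its strand setting are not given there. Of 23282 rows 44 repeat a symbol and were kept apart. Groups and replicate numbers come from the titles.

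After filterByExpr and TMM scaling, the genotype effect was fitted by edgeR 4.0.16 (R 4.3.3) with estimateDisp, glmQLFit in its robust form and glmQLFTest. P-values were adjusted by Benjamini-Hochberg over the 12831 genes kept, and an adjusted p under 0.05 counts as passed. SEs are the absolute log2 fold change over the root of F. No list was tested as a set. Alternatives used limma 3.58.1 (voom), DESeq2 1.42.0, other scalings and filters, a replicate block and omitted libraries; the fit without Rn45s, Lrrc17 and Akap5 was chosen after seeing the data. No libraries agreed within sampling noise (chi-square of 2.82 per gene or more). The test procedure was tested on simulated data.

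The members, gene lists and tests were chosen with earlier results of these data known. Named genes are the 10 members, each called gene of a pathway list or else the 1 with the smallest p, the 3 genes most like Atf4 (1 of them is not reported here), and Phf2; Rn45s, Ttr, Mars, Tulp2, Nup62, Gpt2, Cebpb, Cebpg and the single markers were added after their values were seen. Cell type markers are given as summed levels. Annotation comes from RefSeq (GRCm38.p6), with overlaps from GENCODE M21.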

Additional observations from a re-analysis of the deposited data

How the results depend on the processing

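Of the 10 genes, 3 passed as reported; 1 passed with scaling by library totals, 1 when PHF2 t/g replicate 1 was omitted together with WT replicate 2, and 0 to 3 when a single library was omitted. Without PHF2 t/g replicate 1, 2 or 3 the number was 0, 1 or 2. The median of the 8 tested genes was −0.34 as reported, −0.24 with scaling by library totals, and −0.43 to −0.22 when a single library was omitted. The log2 fold change of Asns turned to 0.0862 with scaling by library totals and ranged from −0.0772 to 0.0376 when a single library was omitted (above 0 without PHF2 t/g replicate 2, at 0.022, and without WT replicate 3), and it passed in none of these. The other 7 tested genes kept their sign in the 16 settings run.

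Over all genes 291 passed as reported, 162 by limma-voom, 149 without the robust fit, 606 without the low-count filter, 140 when PHF2 t/g replicate 1 was omitted together with WT replicate 2, 547 at an adjusted p of 0.10, 1882 at an unadjusted p under 0.05, and 49 to 392 when a single library was omitted (49, 106 and 116 without PHF2 t/g replicate 1, 2 and 3). The share of calls that were higher was 34.4% with TMM, 74.7% with library size alone and 19.0% by DESeq2. Of the other listed genes 10 passed as reported, 16 at an adjusted p of 0.10, 28 at an unadjusted p under 0.05, and 5 to 12 when a single library was omitted. With the replicate number as a replicate block 299 genes passed and 2 of the 10, Atf4 and Ddit3. Same-numbered libraries deviated from their group means with correlations of −0.00445, 0.123 and 0.0846, of which 1 is over 0.1, so the numbers were not taken as pairs; 4 of 6 libraries correlated best with their own number. The causes of these shifts were not tested. Depth limits Trib3, Sesn2 and Atf3, which had under 50 counts per group.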
